A study of Mus musculus with 2 samples.

Results

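The genes described here encode lysosomal glycosidases, sphingolipid hydrolases and the activator proteins that some of these enzymes need. They were chosen by gene name, with no threshold on any value but with earlier results of these data known. The genes were Hexa, Glb1, Gusb, Man2b1, Psap, Gm2a, Asah1 and Smpd1. Of these 8 genes, 7 had an array feature that carried a single gene symbol, among 22180 genes so named. The only feature listing Glb1, which encodes lysosomal beta-galactosidase, also lists a second gene, so Glb1 has no value here. The cells were alveolar macrophages, resident phagocytes of the air spaces, which were isolated by flow sorting from lungs of mice 8 to 10 weeks old. One group is Lysm-Cre, the control, with 1 array, and the other is Lysm-Cre Ssu72fl/fl, also with 1 array. Both groups carry Cre recombinase at the lysozyme 2 locus, which is active across myeloid cells and so is not limited to alveolar macrophages. The second group also carries floxed alleles of Ssu72, which encodes a phosphatase of the RNA polymerase II tail. The number of mice behind each array is not known here. A single array per genotype allows no replicate check and no test, so every difference below compares these arrays only.

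The lysosome takes apart glycoproteins, glycosaminoglycans and sphingolipids one residue at a time, each enzyme removing the group that the enzyme before it has exposed. Membrane sphingolipids are poorly accessible to soluble enzymes, and small lipid-binding proteins, the saposins and the GM2 activator, present them. Alveolar macrophages rely on this machinery to clear surfactant, dead cells and inhaled material, and inherited loss of several of these genes leads to lipid-laden macrophages.

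Signals are the authors' log2 expression values, and each difference is the Ssu72fl/fl value minus the control value. Paired values are given with the control first. A floor was set at 4.65, the median of all values on both arrays, and 13015 genes above it on at least 1 array were compared. All 7 genes lay above the floor on both arrays. The array labels were not checked by the targeted gene: Ssu72 had signals of 4.86 in the control and 4.998 in Ssu72fl/fl, a difference of 0.14 (0.12 after the level adjustment defined below, inside a spread of 0.13), and where its probes lie in the gene is unknown here. Brighter genes as a class were lower on the Ssu72fl/fl array. Their median difference was 0.0080 for 7695 genes at a mean level of 4 to 5, and -0.42 for 153 genes at 7 to 8. For that reason a level-adjusted difference is given as well. It is the difference minus the median difference of the 200 compared genes nearest in mean level. The scatter of those 200 differences, as a robust SD (their scaled median absolute deviation), is called the spread. It describes scatter between genes on these arrays, not scatter between animals.

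The 7 genes were mostly lower on the Ssu72fl/fl array, by amounts that differed between them. Hexa, Psap and Gm2a were about 1.5-fold lower, Gusb and Man2b1 were lower by smaller amounts, Asah1 was nearly level and Smpd1 was higher. In RNA from a whole sorted sample, fewer cells of a type and less RNA per cell cannot be told apart. In all, 6 of 7 were lower, against 51.9% of the 13015 compared genes, and the median difference was -0.32, against -0.0068 over all compared genes. After level adjustment 5 of 7 were lower, against 49.8% of compared genes, with a median of -0.17. Of the 856 compared genes with a mean level over 6, 77.0% were lower, with a median of -0.28, but 44.1% were lower, with a median of 0.043, after quantile normalization, which forces both arrays to the same distribution. None of the 7 reached a 2-fold difference, which 0.0845% of compared genes reached downwards and 0.0307% upwards. A 1.5-fold lower signal was found for 3 of the 7 and for 1.37% of compared genes, but for 15.1% of those over a level of 6, where these 3 genes lie. These counts depended on the scaling. After quantile normalization none of the 7 was 1.5-fold lower. Of the genes 2-fold different, 4 were higher and 11 lower on the deposited scale (26.7% higher), and 13 higher and 1 lower after quantile normalization (92.9% higher).

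**Figure D1:**
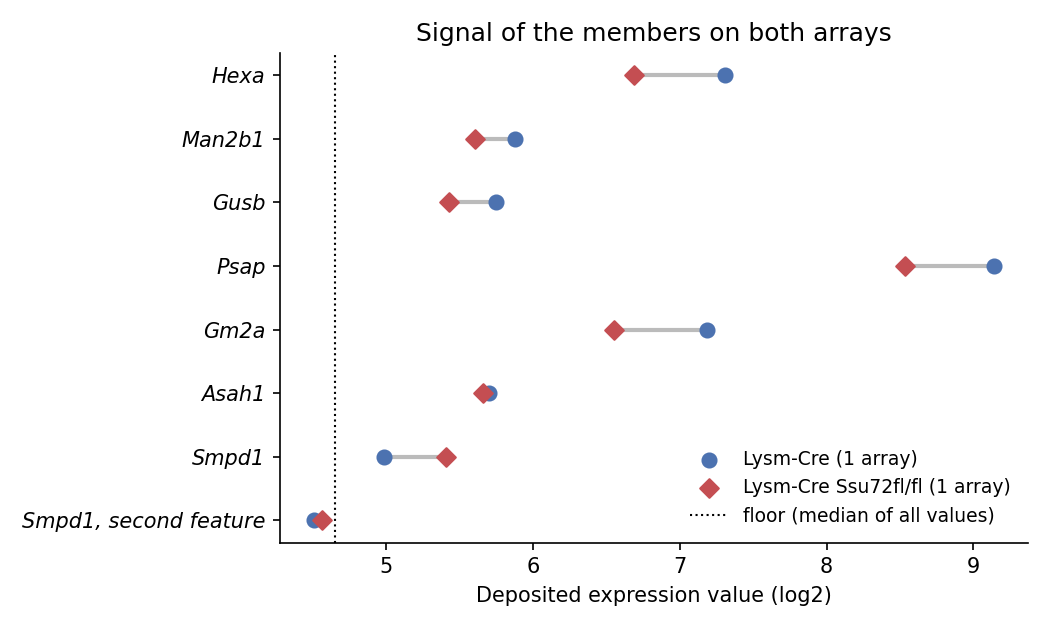
Deposited log2 values of every single-symbol feature of the 7 genes on the control (circles) and Ssu72fl/fl (diamonds) arrays, with 1 array per group and the floor of 4.65 as a dotted line. The diamond lies left of the circle for 6 genes and right of it for Smpd1, whose second feature lies below the floor on both arrays.

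Promoter sequences are shown for the 3 genes with nearly equal differences, Hexa, Gm2a and Psap, and for Smpd1, the gene that was higher, to let their letters be compared. Each is the 120 bases before the annotated start, 5′ to 3′ on the gene's own strand, from RefSeq on GRCm38.p6. Capitals mark GGGCGG, the core of a GC box, or its reverse complement CCGCCC.
Hexa, chr9:59539420-59539539, plus strand: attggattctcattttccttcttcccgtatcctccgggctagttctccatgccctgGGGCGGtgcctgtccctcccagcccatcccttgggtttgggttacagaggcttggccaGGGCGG
Gm2a, chr11:55097865-55097984, plus strand: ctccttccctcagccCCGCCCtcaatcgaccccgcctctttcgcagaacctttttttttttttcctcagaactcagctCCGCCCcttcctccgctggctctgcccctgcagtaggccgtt
Psap, chr10:60277508-60277627, plus strand: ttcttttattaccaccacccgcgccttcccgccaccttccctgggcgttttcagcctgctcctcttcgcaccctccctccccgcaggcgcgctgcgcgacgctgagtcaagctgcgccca
Smpd1, chr7:105554240-105554359, plus strand: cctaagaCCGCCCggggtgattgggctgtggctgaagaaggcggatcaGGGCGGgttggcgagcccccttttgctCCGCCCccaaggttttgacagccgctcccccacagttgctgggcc

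In the table of 300-base promoters, 250 before and 50 after the start, 7 of the 8 genes were found, Psap with 2 annotated starts. These include Glb1 but not Asah1, which had no promoter there and was not searched. GGGCGG was present on either strand in 6 of these 7 genes (Glb1, Gm2a, Hexa, Man2b1, Psap and Smpd1). That is 6 of their 8 promoters, against 35.7% of all 32851 promoters. GGGCGG holds only G and C, and the stretches shown above were 59.2% (Gm2a) to 66.7% (Smpd1) G and C. Over the same 120 bases the second Psap promoter had 44.2%, and the median of all promoters was 54.2%. The part of base composition in this share was not tested. Gm2a, the gene with the lowest difference, held 5 matches, and Smpd1, the one with the highest, held 4. A relation between matches and differences was not tested. Psap held 1 in its first promoter, after the start and outside the stretch shown, and none in its second. The E-box CACGTG lies within the motif bound by TFEB, a regulator of lysosomal genes, and reads the same on both strands. It was found in 1 of the 7 genes, Glb1, or 1 of 8 promoters, and in 7.15% of all promoters. TATAAA, searched on both strands, was in none of these 7 genes with promoters and in 13.6% of all promoters. A match is a description of letters in this window and names no binding site.

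Among the glycosidases, Hexa encodes the alpha subunit of beta-hexosaminidase, which cuts the terminal sugar from ganglioside GM2. Its signal was 7.31 in the control and 6.68 in Ssu72fl/fl, ranks 235 and 322 of 22180 named genes. Ranks are of probe signal, which depends on the probes as well as on the transcript. Its difference was -0.62, a 1.54-fold lower signal. Of the 200 genes nearest in level, 170 were also lower than on the control array, and 38 had a lower difference than Hexa. Level adjustment left -0.26, with a spread of 0.30, so Hexa lay inside the scatter of genes of its level.

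Gusb, the beta-glucuronidase of glycosaminoglycan breakdown, had signals of 5.75 and 5.43. The difference was -0.32, or -0.25 when level-adjusted, with a spread of 0.25. Its signals thus differed by about the scatter between genes of that level, among which 32 of 200 were lower still. Man2b1, the lysosomal alpha-mannosidase that trims glycoprotein glycans, read 5.87 and 5.61, a difference of -0.27. Level-adjusted it was -0.16 against a spread of 0.25. All 3 measured glycosidases were lower, also after level adjustment and after quantile normalization, and none lay beyond its spread. That call was close: of 9 alternative settings, Gusb lay beyond the spread in 2, quantile normalization (-0.26 against 0.24) and a trend over 400 genes, and Hexa in 1, the mean of features (-0.28 against 0.26).

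Both activator genes were lower by almost the same amount as Hexa. Psap encodes prosaposin, which is cut into the saposins that help degrade several sphingolipids. It was the brightest feature of the 7 genes, with 9.14 in the control and 8.54 in Ssu72fl/fl, ranks 59 and 67. The difference was -0.60, a 1.52-fold lower signal. So few genes are this bright that its 200 neighbours span a wide range of levels, and level-adjusted it was -0.17 against a spread of 0.29. Over the 59 compared genes with levels of 8 to 9 alone, the median difference was -0.49 with a robust SD of 0.27, and 94.9% of them were lower.

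Gm2a encodes the GM2 activator, which lifts ganglioside GM2 out of the membrane for beta-hexosaminidase, the enzyme of the Hexa product. It read 7.18 and 6.55, ranks 269 and 388. Its difference of -0.63 was the lowest of the 7, a 1.55-fold lower signal. Of its 200 neighbours 167 were lower than on the control array, and 30 had a lower difference than Gm2a. The level-adjusted difference of -0.30 was just beyond the spread of 0.29. Among all compared genes 18.7% lay lower than their spread in this way, and of the 7 genes Gm2a was the only one in this setting. Gm2a lay beyond its spread in 7 of 9 alternatives. Median centring and the changed floors were among these, but they left both numbers unchanged and so repeat this setting. With a trend over 100 genes Gm2a was beyond by very little (-0.2638 against 0.2630). It was not beyond with a trend over 400 genes (-0.31 against 0.31) or over all features (-0.14 against 0.41).

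Of the sphingolipid hydrolases, Smpd1 was higher and Asah1 nearly level. Smpd1 encodes acid sphingomyelinase, which turns sphingomyelin into ceramide, and Asah1 encodes acid ceramidase, which acts on that ceramide in the next step. Asah1 had signals of 5.70 and 5.66, a difference of -0.038 that was 0.0042 when level-adjusted, against a spread of 0.23. These signals were nearly the same, and 101 of 200 neighbours had a lower difference. The sign of so small a value turned with quantile normalization, to 0.053.

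Smpd1 was the only one of the 7 that was higher, with 4.99 in the control and 5.41 in Ssu72fl/fl. Its rank among named genes moved from 5536 to 2154. The difference was 0.42, a 1.34-fold higher signal, which became 0.44 when level-adjusted, against a spread of 0.19. Of its 200 neighbours 198 had a lower difference. Among all compared genes 13.1% lay higher than their spread. The control signal was only 0.33 above the floor, and the second feature of Smpd1 read 4.51 and 4.56, below the floor on both arrays, so it gave no measured difference. With the mean of both features, the level-adjusted difference of Smpd1 was 0.22.

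**Figure D2:**
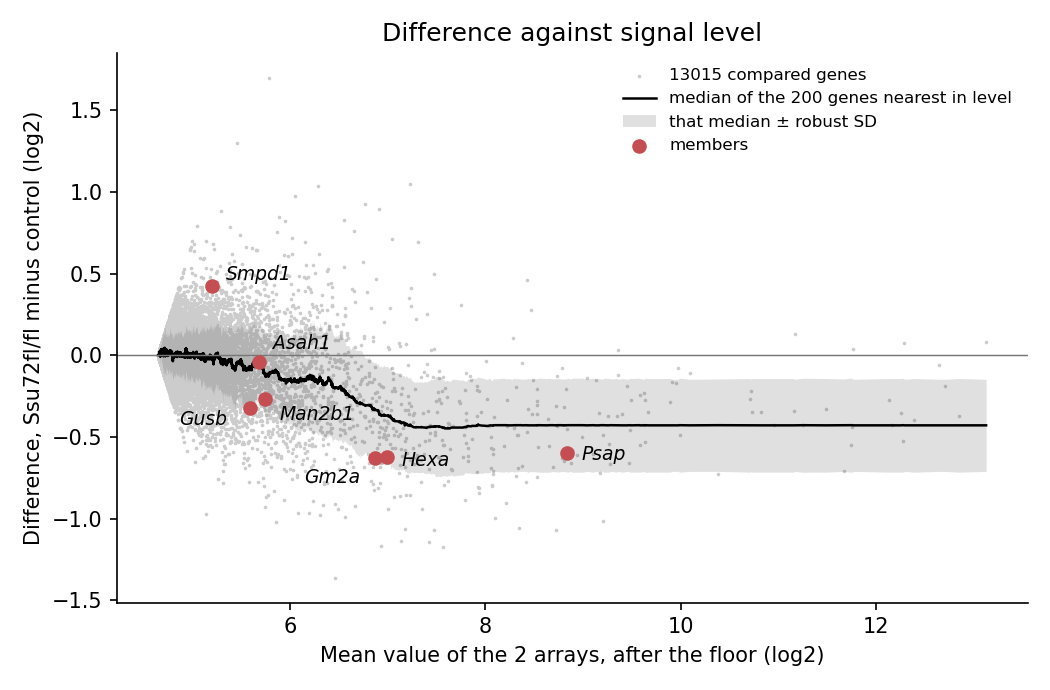
Difference between the arrays (vertical axis, log2, Ssu72fl/fl minus control) against the mean value of both arrays (horizontal axis, log2) for 13015 compared genes in grey, with the median of the 200 genes nearest in level as a line, the spread as a band and the 7 genes in red. Smpd1 lies above the band at 0.42, Gm2a just below it at -0.63, and Hexa, Psap, Gusb, Man2b1 and Asah1 lie inside it.

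Set against each other, the 7 genes formed 21 pairs. The gap between the differences of Hexa, Psap and Gm2a was at most 0.030, smaller than the spread of any of them. The spread is used here only as a yardstick. It describes scatter between genes of a similar level and is not the error of a gap between genes. Without replicate arrays that error is unknown, so the order within a pair cannot be decided, whether its gap is below or above the spread. Across all 21 pairs, 15 had a gap larger than the larger spread of the pair, and 8 did after level adjustment. All 6 pairs with Smpd1 were among those 8. Of the 15 pairs without Smpd1, 2 remained after level adjustment, Asah1 against Gm2a (0.30) and Asah1 against Gusb (0.26). The gap between Smpd1 and Asah1, neighbours in the pathway, was 0.46, or 0.44 level-adjusted, against a larger spread of 0.23.

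**Figure D3:**
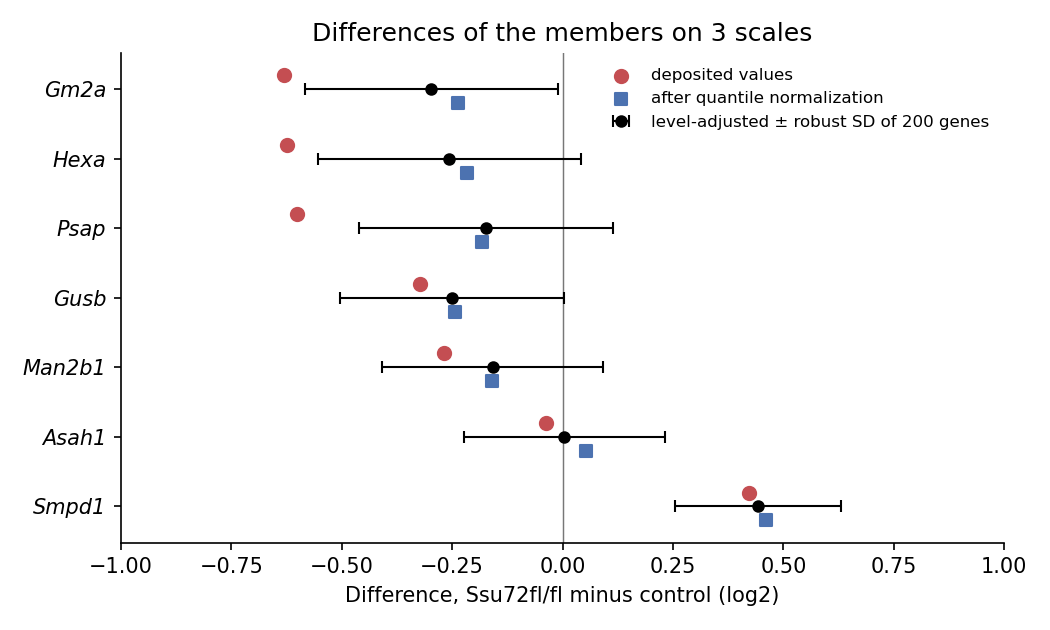
Differences of the 7 genes (horizontal axis, log2, Ssu72fl/fl minus control) from the deposited values (red circles), after level adjustment (black circles, with bars of 1 robust SD of the 200 genes nearest in level) and after quantile normalization (blue squares). For Hexa, Psap and Gm2a the level-adjusted values (-0.26, -0.17 and -0.30) lie nearer to 0 than the deposited ones, while Smpd1 lies between 0.42 and 0.46 on all 3 scales.

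The genes nearest to each of the 7 in both signals were found by Euclidean distance over the pair of array values. With 2 arrays this compares only a level and a difference. Flna, the actin crosslinker filamin A, was nearest to Hexa (distance 0.024), and the chemokine receptor gene Cxcr4 to Gm2a (0.020). Cltc, the clathrin heavy chain, lay 0.0064 from Gusb, and Polr2i, a subunit of RNA polymerase II, 0.012 from Asah1. For Man2b1 it was Rnf115 (0.0053), for Smpd1 Limd2 (0.016) and for Psap Erdr1 (0.050).

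Other glycosidases of the lysosome were near 0 as a list. Of 16 on the list 10 were compared, 6 of them lower, and their median was -0.069 (level-adjusted -0.012). Of the 10, 2 lay lower than their spread and 2 higher, against 18.7% and 13.1% of all compared genes. Galc, which cleaves galactosylceramide, read 4.88 and 4.75 (-0.14, or -0.13 level-adjusted, spread 0.11). Its Ssu72fl/fl signal was only 0.094 above the floor. Manba, the beta-mannosidase, read 5.11 and 5.01 (-0.099, or -0.091 level-adjusted, spread 0.14). Naglu, of heparan sulfate breakdown, was the highest at 5.35 and 5.60 (0.25, or 0.29 level-adjusted, spread 0.21). Neu1, the lysosomal sialidase, followed at 5.84 and 5.98 (0.14, or 0.29 level-adjusted, spread 0.25). Gla, the alpha-galactosidase of globotriaosylceramide breakdown, was nearly level at 5.09 and 5.11.

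The other lysosomal lipid hydrolases and lipid transporters were lower together on the deposited scale. All 10 compared genes had a lower signal, with a median of -0.26, and 7 of 10 were lower after level adjustment (median -0.12) and after quantile normalization (-0.099). Lipa, the acid lipase that hydrolyses cholesteryl esters and triglycerides, read 6.74 and 5.95, and its difference of -0.79 was -0.61 level-adjusted against a spread of 0.32. Ppt2, a lysosomal thioesterase, read 5.83 and 5.30 (-0.53, or -0.44 level-adjusted, spread 0.23). Both lay further below genes of their level than any of the 7 did. At the other end were the cholesterol transporter gene Npc1 (-0.0064) and Scarb2 (-0.0075), a lysosomal membrane protein, whose sign turned with quantile normalization.

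Sulfatases, sorting genes and regulators had list medians between -0.089 and -0.031. The sorting genes Sort1 and Ctsa and the regulator Max were as far from 0 as Man2b1, and no gene of the sulfatase list was. Of 7 compared sulfatase genes with Hgsnat, 6 were lower, with a median of -0.031, from Hgsnat (-0.094), the heparan acetyltransferase, and Ids (at least 0.075 lower, being below the floor on the Ssu72fl/fl array) to Galns (-0.0051) and Sgsh (0.0073), whose signs turned with quantile normalization. Arsa, which removes sulfate from sulfatide with the help of a saposin, did not exceed the floor on either array and was not compared. The list of sorting and protection genes had 7 of 13 lower, with a median of -0.033 that turned to 0.019 with quantile normalization. Its ends were Sort1 (-0.40, level-adjusted -0.25), a sorting receptor that binds prosaposin, and Ctsa (-0.28, level-adjusted 0.091), the protective protein of beta-galactosidase and sialidase, and on the other side Gga1 (0.17) and Ap1s1 (0.11), adaptors of transport from the Golgi. Ctsa turned to 0.14 with quantile normalization.

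Of 8 compared transcription factors of lysosomal genes and E-boxes 5 were lower (median -0.089), from Max (-0.27) and Tfec (-0.21) to Mitf (0.071) and Tfeb (0.12). Tfeb read 4.75 and 4.88, close to the floor. Sphingolipid enzymes outside the lysosome had 13 of 22 lower, with a median of -0.015. Cerk, the ceramide kinase, was lowest (-0.39, or -0.38 level-adjusted, spread 0.18), followed by the sphingosine kinase gene Sphk2 (-0.31). Gba2, the glucosylceramidase outside the lysosome (0.22), and the ceramide synthase gene Cers2 (0.21) were highest. Over these 6 related lists 70 genes were compared, 47 lower and 23 higher, and the median was -0.044, and Lipa alone was 1.5-fold different.

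**Figure D4:**
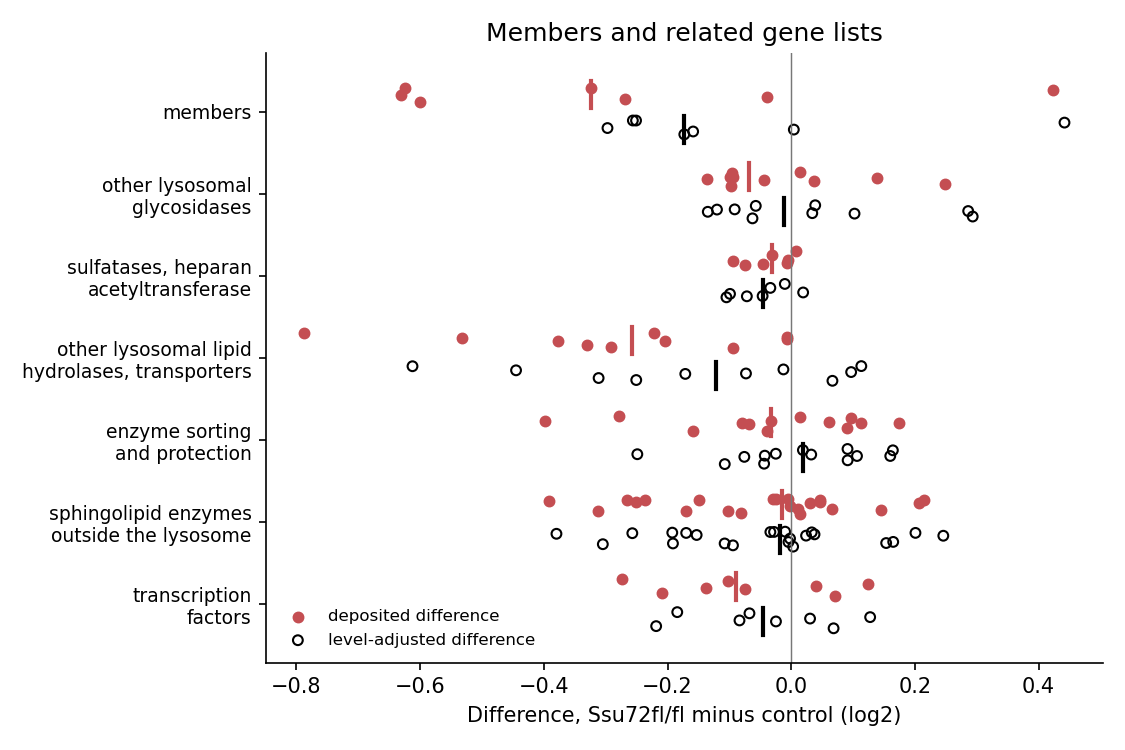
Differences (horizontal axis, log2, Ssu72fl/fl minus control) of the compared genes of each list, 1 point per gene, from the deposited values (filled) and after level adjustment (open), with bars at the medians. Among the 7 lists plotted, the 7 genes and the other lysosomal lipid hydrolases and transporters have the lowest deposited medians, -0.32 and -0.26.

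Markers of alveolar and interstitial macrophages, monocytes, neutrophils and alveolar type 2 cells were mostly lower on the deposited scale and, by count, after quantile normalization. The few compared lymphoid markers went both ways. Marker genes of alveolar macrophages were all above the floor on both arrays, 16 of 16, and 15 were lower, with a median of -0.31 (level-adjusted -0.073). After quantile normalization 10 of 16 were lower, with a median of -0.048. Their signals ran from 5.06 to 9.42 in the control and from 5.09 to 9.30 in Ssu72fl/fl. Interstitial macrophage markers, also above the floor 11 of 11, were lower in 10, with a median of -0.39 (level-adjusted -0.33). Their signals ran from 4.81 to 9.26 in the control and from 4.73 to 8.19 in Ssu72fl/fl. With quantile normalization 10 of 11 stayed lower, with a median of -0.29. Monocyte markers were above the floor in 8 of 9 on each array, and of 9 compared 7 were lower (median -0.14). The count was again 7 of 9 after quantile normalization (median -0.11). Alveolar type 2 cell markers, above it 10 of 10, were lower in 8 (median -0.17, or -0.073 after quantile normalization), with signals from 4.70 to 8.71 and from 4.74 to 8.35. Neutrophil markers were above it in 8 of 12 on each array, and of 8 compared 6 were lower (median -0.046). Quantile normalization left 6 of 8 lower (median -0.051). T and NK cell markers were above it in 1 of 7 and 3 of 7, with 2 of 3 compared markers higher (median 0.055). Of 4 compared B and plasma cell markers 2 were lower (median 0.020), and both compared eosinophil markers were higher (median 0.13). The brightest lymphoid marker, Ighm, read 7.46 and 6.88 (-0.58, or -0.16 level-adjusted, spread 0.29). Other compared lymphoid markers lay at most 0.49 above the floor. The part of such cells in the differences of the 7 genes was not tested.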

How the data were processed

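The authors deposited 1 log2 expression value per array feature and array. That the scale is log2 was inferred from the range, 4.23 to 13.5; column medians were 4.65 (control) and 4.66 (Ssu72fl/fl). MAS5 is listed, with no role stated, among the tools in the submitters' processing notes. Background correction, normalization and offset are unknown here, and an offset would shrink differences at low signal. The labels' protocols give cRNA from 6 ug of total RNA. Of 33793 features 23521 carried 1 symbol, 1814 several and 8458 none; 23328 were matched by Entrez ID to RefSeq GRCm38.p6. Each gene took its brightest single-symbol feature, and values under the floor were set to it. Level adjustment used 100 genes on each side in level, except for Psap, which had 59 brighter and 141 dimmer ones. The procedure was tested on simulated data. Members and lists were chosen with earlier results of these data known. Named were all members, Ssu72, fixed partner genes, the nearest gene to each member and up to 2 genes at each end of each list. Alternatives were median centring, quantile normalization, floors at the 25th and 75th percentiles or none, mean of features, trends over 100 or 400 genes, over all features or by loess (span 0.3), and a 1.5-fold threshold. Python 3.11.15, numpy 2.4.6 and pandas 2.3.3 were used.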

Additional observations from a re-analysis of the deposited data

How the results depend on the processing

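The count of lower genes stayed at 5 or 6 of 7 under every alternative run, and the median difference stayed between -0.34 and -0.17. The value nearest 0 came with the loess trend removed. Level-adjusted, the median ran from -0.23 (400 nearest genes) to -0.16 (trend over all features). Smpd1 lay beyond the spread at its level in 9 of 9 alternatives, Gm2a in 7. Median centring and the changed floors could alter these calls little or not at all, and for Gm2a they gave the values of the main setting. With quantile normalization the median over Psap, Gm2a, Asah1 and Smpd1 went from -0.32 to -0.064, Hexa to -0.22, Psap to -0.18, Gm2a to -0.24 and Asah1 turned to 0.053. With a threshold of 1.5-fold in place of 2-fold, 3 genes passed in place of 0. Averaging the features of Smpd1 lowered its difference from 0.42 to 0.24. The value of a single gene was taken as moved if it changed by at least the spread at its level, since there were no replicates. For medians over genes the smallest spread of the 7, 0.19, was used. A count was taken as moved if it changed more than 1.5-fold or from 0. A change of sign in a value was called reversed, whatever its size. No paired analysis was possible because each group had 1 array. With 1 array per genotype, signal over background limits Smpd1 most, and a difference between the groups cannot be told apart from one between these arrays.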
